A study of Mus musculus with 6 samples.

Results

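The clustered histone genes are the genes of the mouse histone clusters 1 to 4, named Hist1 to Hist4 in the deposited tables, that encode the linker histone H1 and the core histones H2A, H2B, H3 and H4. They were taken by symbol, as every row whose name gives a cluster and one of these 5 histone types and is not marked as a pseudogene copy, which left out 1 symbol. This gave 69 of 48368 gene symbols. Of these, 6 encode H1, 20 H2A, 18 H2B, 12 H3 and 13 H4. Transcripts were measured in cancer-associated fibroblasts (fibroblasts that grow within a tumour), isolated and cultured from mammary tumours of MMTV-PyMT mice, which express the polyomavirus middle T oncogene in the mammary epithelium from a mouse mammary tumour virus promoter. There were 3 libraries labelled KO, from Hic-5-/- mice, and 3 labelled HET, from Hic-5+/- mice. All 6 shared the transgene, and the HET libraries also carried 1 targeted allele, so no wild-type library was part of the comparison. Hic-5, encoded by Tgfb1i1, is a focal adhesion adaptor protein, and the comparison asks what its loss does to gene expression in these fibroblasts.

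Most genes of the histone clusters are replication-dependent: their mRNAs build up in S phase, when new DNA is packed into nucleosomes, and are degraded when replication stops. Such mRNAs end in a conserved stem-loop instead of a poly(A) tail. The stem-loop is bound by SLBP, and the U7 small nuclear ribonucleoprotein directs the cut just after it. Some of the same genes can also give polyadenylated transcripts when a cell leaves the cycle or differentiates, and variant histone genes outside the clusters are transcribed through the whole cycle.

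Library totals were 24954273 to 42470598 estimated counts in KO libraries and 25668423 to 37930851 in HET libraries. Tgfb1i1 stood at 90.4, 0.232 and 156 CPM (CPM, a gene's counts over its TMM-scaled library total) in KO replicates 1 to 3, against 223, 348 and 125 CPM in HET replicates 1 to 3. It was nearly absent from KO replicate 2 alone, and KO replicate 3 lay above HET replicate 3, so groups are called here by their labels. The fibroblast label was checked with 12 markers, whose summed level ran from 7440 to 8694 CPM in KO libraries and from 11776 to 22721 CPM in HET libraries. KO replicate 2 was the lowest library for 8 of the 12, among them Col1a1 at 2.56 CPM, Col1a2 at 0.491 CPM, Dcn at 0.775 CPM, Thy1 at 0.982 CPM and Lum at 0.0258 CPM. Other fibroblast markers were plain there, with Fn1 at 4176 CPM and Vim at 2870 CPM, and none of the 12 was at 0. It also had the highest sum of 12 epithelial markers (103 CPM, against 28.8 and 30.2 CPM in the other KO libraries and 18.8 to 70.5 CPM in HET libraries). Krt19 alone made up 27.2 CPM of the sum in KO replicate 1 and 64.1 CPM in HET replicate 1. It went the other way in KO replicate 2, at 0.542 CPM. Krt18 and Cdh1 stood at 37.9 and 14.6 CPM in KO replicate 2, against at most 2.93 and 1.47 CPM in any other library. The sum of 12 leukocyte markers was 28.7, 17.1 and 1154 CPM in KO replicates 1 to 3, against 31.4, 1439 and 50.6 CPM in HET replicates 1 to 3. Lyz2, the lysozyme gene of myeloid cells, made up 1037 and 1257 CPM of the 2 high sums. In these 2 libraries, KO replicate 3 and HET replicate 2, 2 of the 12 leukocyte markers were at 0, against 3 to 5 in the others.

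The members lie on 4 chromosomes (GENCODE M21, GRCm38). Cluster 1, on chromosome 13, held 56 of the 69 symbols. Its last member by position, Hist1h2al (chr13:51202727-51203065), lay 27267876 bases beyond its neighbour Hist1h2aa and is annotated as a processed pseudogene. Hist1h2aj is annotated as an unprocessed pseudogene, and the other 67 symbols are protein-coding. Cluster 2 held 10 members on chromosome 3 (chr3:96219865-96270132), cluster 3 held 2 on chromosome 11 (chr11:58948920-58956830), and cluster 4 was the single gene Hist4h4 on chromosome 6 (chr6:136801553-136804415). In 13 places an H2A and an H2B gene stood head to head on opposite strands, with 175 to 305 bases between their annotated starts.

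The stem-loop is the sequence that sets these mRNAs apart, so it is shown for members of each histone type and for 4 of the 5 forms found. Of the members shown, Hist1h2bb and Hist1h3d are not discussed further. The form not shown was in 1 member, Hist2h2ac. A search of annotated transcripts for the consensus histone stem-loop, free to vary at 3 of its 16 bases, found it in 42 of the 69 members. In all, 45 of 21877 protein-coding genes held it (0.206%). The 42 members used 5 different stem-loops. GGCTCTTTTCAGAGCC was in 26 members of H1, H2A, H2B and H3, and the next most common forms were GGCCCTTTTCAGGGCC in 7 and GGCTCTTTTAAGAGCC in 6. Both forms that begin with GGCCC were found in H4 genes, 9 in all, and in no member of another type. Each line gives 30 bases of the transcript, 5′ to 3′, with the stem-loop in capitals.
Hist1h1c: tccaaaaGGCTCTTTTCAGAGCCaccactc
Hist1h1e: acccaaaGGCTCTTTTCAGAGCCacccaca
Hist3h2a: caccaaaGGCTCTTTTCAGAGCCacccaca
Hist1h2bj: atccaaaGGCTCTTTTCAGAGCCacgcaca
Hist1h2bb: acccaaaGGCTCTTTTAAGAGCCacccaca
Hist1h3d: ccccaaaGGCTCTTTTCAGAGCCacccccg
Hist1h4h: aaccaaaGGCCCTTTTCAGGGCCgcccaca
Hist1h4i: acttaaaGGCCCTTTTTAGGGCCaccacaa
In 21 of the 42, the annotated transcript ran at least 100 bases past the stem-loop, as in Hist1h1c (840 bases) and Hist3h2a (1643 bases), and 17 of all 69 members had AATAAA or ATTAAA in the last 60 bases. Hist2h2be had no stem-loop in its annotated transcript and had such a poly(A) signal. A member without a match says only that these letters are not in its annotated transcript, which for some members stops at the end of the coding sequence.

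Members could be told apart by sequence to very different degrees. Of the 69, 36 shared at least 50% of the 50-base stretches of their transcripts with another gene, and 4 shared none. The median shared part was 1.13% in H1, 73.2% in H2A, 46.9% in H2B, 62.0% in H3 and 39.5% in H4. Hist2h2aa2 was shared over its whole length. The deposited counts are in part fractional, so values of single members with many shared stretches depend on how the authors divided such reads. This holds for many H2A, H2B, H3 and H4 members. Sums over members depend on it less.

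Summed over the 69 members, clustered histone transcripts stood at 149, 78.6 and 233 CPM in KO replicates 1 to 3, against 143, 843 and 492 CPM in HET replicates 1 to 3. HET replicates 2 and 3 were above every other library, while HET replicate 1 lay below 2 of the 3 KO libraries, so the groups overlapped. The means were 154 ± 77.5 CPM in KO and 493 ± 350 CPM in HET (SD, n = 3 each), and the log2 ratio of the KO mean to the HET mean was -1.68. The SDs of the library sums carry over to 1.26 on this log2 scale, which is a spread between single libraries and not a standard error of the ratio. The highest library was 10.7 times the lowest. Less histone mRNA per cell and fewer cells that carry it cannot be told apart in such bulk libraries.

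**Figure D1:**
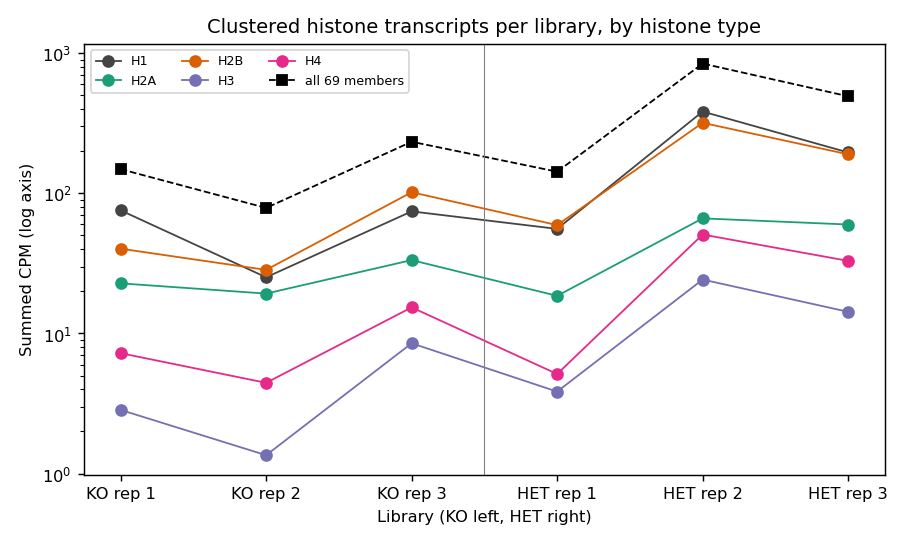
Summed CPM of clustered histone genes in each library, on a log axis, for each histone type (circles) and for all 69 members (squares), with lines joining the points of 1 type. HET replicates 2 and 3 are the 2 highest libraries for every type, and HET replicate 1 sits among the KO libraries or, for H2A, just below them.

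Each of the 5 types followed this order at its top. H1 sums were 75.6, 25.2 and 74.3 CPM in KO replicates 1 to 3, against 55.7, 383 and 196 CPM in HET replicates 1 to 3. H2B sums were 40.3, 28.4 and 102 CPM in KO libraries, against 59.3, 318 and 190 CPM in HET libraries. H4 sums were 7.23, 4.44 and 15.4 CPM in KO libraries, against 5.14, 50.8 and 33.0 CPM in HET libraries. KO replicate 2 was the lowest library in all 3 types, and HET replicates 2 and 3 were the highest. H3 sums were 2.85, 1.35 and 8.51 CPM in KO libraries, against 3.85, 24.2 and 14.3 CPM in HET libraries. H2A sums spread least, at 22.8, 19.3 and 33.4 CPM in KO libraries, against 18.6, 66.2 and 59.9 CPM in HET libraries, and there HET replicate 1 was the lowest library. The log2 ratio of KO to HET means was -0.94 for H2A and -1.86 to -1.72 for the other 4 types. Hist3h2a alone made up 15.0, 11.3 and 18.8 CPM of the H2A sums in KO replicates 1 to 3. In HET replicates 1 to 3 it made up 12.9, 20.2 and 21.4 CPM. The H2A ratio was not recomputed without this gene. The H1 sums were mostly Hist1h1c, at 73.7, 24.5 and 70.7 CPM in KO libraries, against 53.9, 368 and 186 CPM in HET libraries. These type sums rest on the same 6 libraries and are not independent of each other.

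In edgeR's quasi-likelihood test of KO against HET, 44 of the 69 members passed the filter on low counts. Of these, 43 had a lower fitted level in KO, where 49.1% of all 17584 tested genes did. None of the 44 passed the adjusted threshold of 0.05, as was so of every tested gene (0%), and the smallest adjusted p of a member was 0.579. At an unadjusted p under 0.05, 8 members were lower in KO and none was higher, with 4.29% of all tested genes lower and 4.30% higher by the same rule. DESeq2 gave 20 members at that level, all lower in KO, where 5.77% of all genes were, and 0 members after adjustment, where 1.36% of all genes passed. limma-voom gave 3 members at that level, where 5.07% of all genes were lower, and 0 after adjustment. The median log2 fold change of the tested members was -1.62, and that of all tested genes was 0.01. Every KO library lay below every HET library in 1 of the 44 members, Hist1h2ag, and in 7.40% of all tested genes. Without HET replicate 2, 0 members had an unadjusted p under 0.05 and the log2 ratio of the summed CPM was -1.05. Without KO replicate 2, the library low in Col1a1, Col1a2, Dcn, Thy1 and Lum, these were 2 members and -1.37. The count was 4 without KO replicate 1, 22 without KO replicate 3, 44 of 56 tested without HET replicate 1, and 1 without HET replicate 3. The shares of all tested genes in these leave-out fits are not given here, so the counts cannot be read as particular to the members.

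**Figure D2:**
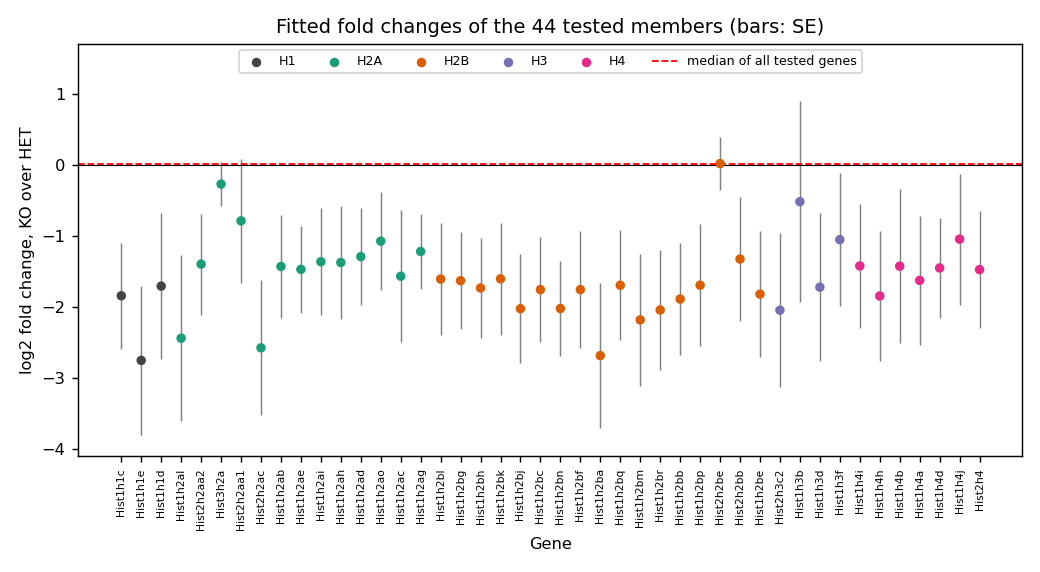
Fitted log2 fold change, KO over HET, of the 44 tested members (points, coloured by histone type), with bars for the standard error. The dashed line is the median of all tested genes, and 43 points lie below 0.

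Much of the library pattern was shared by the members, and it crossed the labels. HET replicate 2 was the highest library for 38 of the 44 tested members (86.4%), against 16.9% of all tested genes. HET replicates 2 and 3 were the 2 highest libraries for 41 members (93.2%), against 11.6% of all tested genes. In 31 members (70.5%) the 3 highest libraries were HET replicate 2, HET replicate 3 and KO replicate 3 in this order, which held for 2.67% of all tested genes. HET replicate 1 lay below KO replicate 3 in 41 members (93.2%), against 50.6% of all tested genes. It was the lowest of all 6 libraries in 11 members (25%), against 15.9% of all tested genes. It lay below every KO library in 25% of the members, near the 24.3% of all tested genes. KO replicate 2 was the lowest library in 29 members (65.9%), against 23.6% of all tested genes. HET replicate 1 lay below KO replicate 2 in 13 members (29.5%), against 50.8% of all tested genes. These patterns were counted after the values were seen and are descriptions. The leukocyte markers were also high in HET replicate 2 and KO replicate 3 and low in HET replicate 3, and their part in the histone levels was not tested.

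**Figure D3:**
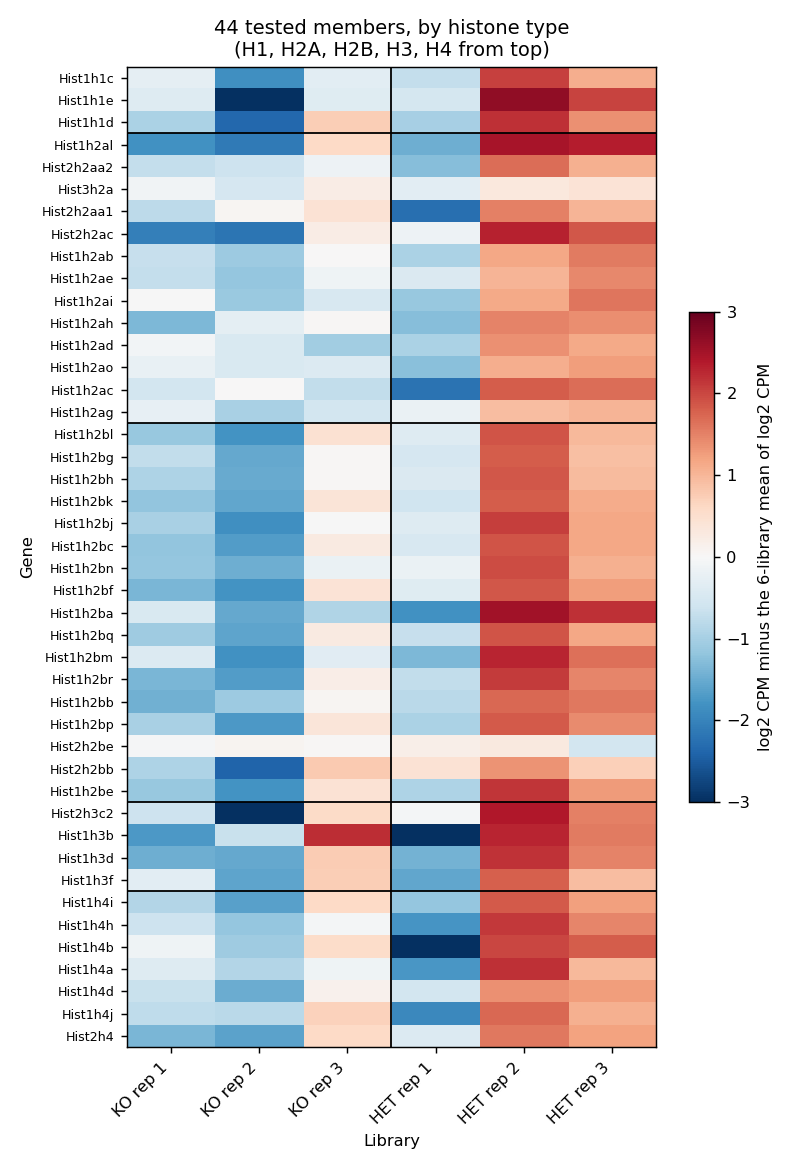
log2 CPM of each of the 44 tested members minus its mean over the 6 libraries, with rows grouped by histone type and, within a type, from highest to lowest mean RPKM. The columns of HET replicates 2 and 3 are red in nearly all rows, and Hist3h2a and Hist2h2be are the palest rows.

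Levels per length were read from the deposited RPKM values (reads scaled by gene length and library total). For most genes with long introns the lengths behind them matched the genomic span, so members with introns, such as Hist1h2bc, are understated. Some single-exon members were instead divided by a length below their GENCODE span, such as Hist1h1d (744 against 7425 bases) and Hist1h2bh (388 against 1679 bases). Levels per length rest on these lengths. Hist1h1c, which encodes one of the somatic H1 subtypes, had the highest mean over the 6 libraries, at 65.7 RPKM. The next were Hist1h2bl at 16.8, Hist1h2al at 12.0, Hist1h4i at 10.7, Hist1h2bg at 9.31 and Hist1h2bh at 7.79 RPKM. Most members were far lower, with medians over the 6 libraries' means of 1.25 RPKM in H1, 0.901 in H2A, 2.61 in H2B, 0.343 in H3 and 1.06 in H4.

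Linker histones bind the DNA between nucleosomes and compact chromatin. Hist1h1c (chr13:23738808-23740367, a single exon) stood at 73.7, 24.5 and 70.7 CPM in KO replicates 1 to 3, against 53.9, 368 and 186 CPM in HET replicates 1 to 3. The 2 highest libraries were HET replicates 2 and 3, but HET replicate 1 lay below 2 KO libraries, so the groups overlapped. Its log2 fold change, KO over HET, was -1.85 ± 0.75 (SE; edgeR adjusted p = 0.579). Hist1h1c alone made up 49.6%, 31.1% and 30.3% of all member CPM in KO libraries, against 37.8%, 43.6% and 37.8% in HET libraries. Without it, the log2 ratio of the summed CPM was -1.58, a setting chosen after seeing the data. Hist1h1e, another somatic H1 gene, stood at 1.05, 0.129 and 1.07 CPM in KO libraries, against 0.956, 8.65 and 5.61 CPM in HET libraries. Its log2 fold change of -2.76 ± 1.05 (SE; edgeR adjusted p = 0.579) was the lowest among the tested members. Its annotated span of 1930 bases overlaps Hist1h2be on the same strand. The length behind its deposited RPKM was 748 bases, so whether its counts reach the overlap is not known. Hist1h1d stood at 0.614, 0.233 and 1.98 CPM in KO libraries, against 0.602, 5.49 and 3.10 CPM in HET libraries. Hist1h1a and Hist1h1b, the remaining somatic H1 genes, were not tested and reached at most 0.284 and 0.853 CPM. The testis-specific Hist1h1t had 1 count, in KO replicate 1.

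H2A and H2B pair as dimers on either side of the nucleosome. Of 13 tested H2A members, 13 had a lower fitted level in KO, with a median log2 fold change of -1.38. Of 17 tested H2B members, 16 did, with a median of -1.76. Hist1h2bn had the smallest unadjusted p of all members (0.0222; edgeR adjusted p = 0.579), with a log2 fold change of -2.03 ± 0.67 (SE). It stood at 0.728, 0.594 and 1.43 CPM in KO replicates 1 to 3, against 1.42, 6.34 and 3.41 CPM in HET replicates 1 to 3. KO replicate 3 and HET replicate 1 were nearly equal and the other libraries were apart by label. Hist1h2bj stood at 1.23, 0.672 and 2.38 CPM in KO libraries, against 1.84, 10.2 and 5.37 CPM in HET libraries, with a log2 fold change of -2.03 ± 0.76 (SE). Hist1h2bl, the highest H2B gene per length, stood at 5.76, 3.80 and 16.6 RPKM in KO libraries, against 8.72, 42.0 and 23.7 RPKM in HET libraries. KO replicate 3 lay above HET replicate 1 in both genes. Of the 50-base stretches, 86.45% were shared with other members in Hist1h2bn, 59.4% in Hist1h2bj and 82.8% in Hist1h2bl. Values of these single genes thus depend on how shared reads were divided.

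Hist1h2bc is known to give polyadenylated as well as stem-loop transcripts. It stood at 17.5, 12.5 and 48.3 CPM in KO libraries, against 28.7, 147 and 89.6 CPM in HET libraries, with a log2 fold change of -1.76 ± 0.74 (SE; edgeR adjusted p = 0.583). Of the testis H2A and H2B pair, Hist1h2aa had 1 count in each of KO replicates 1 and 2 and none elsewhere. Hist1h2ba, its head-to-head neighbour, was measured at 0.546, 0.258 and 0.397 CPM in KO libraries, against 0.213, 4.24 and 3.37 CPM in HET libraries. HET replicates 2 and 3 were thus high in Hist1h2ba too, with HET replicate 1 lowest of all, and its log2 fold change was -2.69 ± 1.02 (SE). Hist1h2al, the pseudogene outside the main cluster, stood at 0.752, 0.610 and 4.004 CPM in KO libraries, against 0.956, 14.7 and 13.5 CPM in HET libraries. It shared 67.6% of its 50-base stretches with 17 other members.

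H3 and H4 form the central tetramer of the nucleosome. Of 12 H3 members 4 were tested and had lower fitted levels in KO, and of 13 H4 members 7 were tested and did. The median log2 fold changes were -1.39 for H3 and -1.46 for H4, and none of these 11 genes had an unadjusted p under 0.05. Hist2h3c2, the highest H3 gene per length, stood at 1.87, 0.207 and 4.24 CPM in KO replicates 1 to 3, against 2.73, 15.2 and 8.12 CPM in HET replicates 1 to 3. Hist1h3b differed from the rest of its type, at 0.137, 0.284 and 2.10 CPM in KO libraries, against 0.0354, 2.19 and 1.33 CPM in HET libraries. KO replicate 3 was nearly as high as HET replicate 2 there, and the log2 fold change was -0.52 ± 1.41 (SE; edgeR adjusted p = 0.914), turning to 0.28 without HET replicate 2. Hist1h4i (chr13:22040636-22041362), the highest H4 gene per length, stood at 3.66, 2.17 and 10.2 CPM in KO libraries, against 3.01, 24.1 and 15.8 CPM in HET libraries. Hist1h4h stood at 1.02, 0.697 and 1.51 CPM in KO libraries, against 0.461, 6.85 and 4.31 CPM in HET libraries. In both H4 genes, HET replicate 1 lay below 2 or more KO libraries.

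The 25 members that did not pass the filter reached at most 4.55 CPM in any library. Of these, 19 were highest in HET replicate 2, and 3 had under 3 counts in every library (3 counts corresponded to 0.0706 to 0.120 CPM, counting error only). Hist1h4m reached that highest value, at 0.228, 0.103 and 0.159 CPM in KO libraries, against 0.213, 4.55 and 2.31 CPM in HET libraries. It shared 89.8% of its 50-base stretches with other members. Without the filter, 64 of the 69 members had a lower fitted level in KO and 5 a higher one, with 15 at an unadjusted p under 0.05 where 3.35% of all genes were lower by that rule.

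In cluster 3, Hist3h2a had HET replicates 2 and 3 as its 2 highest libraries within a narrow range, and the other genes of clusters 3 and 4 had few counts. Hist3h2a (chr11:58954685-58956830) stood at 15.0, 11.3 and 18.8 CPM in KO replicates 1 to 3, against 12.9, 20.2 and 21.4 CPM in HET replicates 1 to 3. The groups overlapped, with a log2 fold change of -0.27 ± 0.31 (SE; edgeR adjusted p = 0.782). Its annotated transcript overlaps Trim17 on the same strand, and 29.5% of its 50-base stretches were found only in genes that are not members, so part of its reads may belong there. Hist3h2ba had 0 to 2 counts in KO libraries and at most 0.0853 CPM in HET libraries. Hist4h4, reported to be polyadenylated, stood at 0.182, 0.0775 and 0 CPM in KO libraries, against 0.0354, 0.114 and 0.157 CPM in HET libraries, all near or under the value of a few counts.

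The 2 genes of one head-to-head pair in cluster 2 did not share a pattern. Hist2h2ac, an H2A gene (chr3:96220361-96220880), stood at 0.114, 0.103 and 0.555 CPM in KO replicates 1 to 3, against 0.425, 2.36 and 1.73 CPM in HET replicates 1 to 3. Hist2h2be, an H2B gene on the other strand (chr3:96221119-96223738), stood at 2.09, 2.25 and 2.18 CPM in KO libraries, against 2.41, 2.59 and 1.45 CPM in HET libraries. HET replicates 2 and 3 were thus the 2 highest libraries for Hist2h2ac, while HET replicate 3 was the lowest for Hist2h2be. The log2 fold changes were -2.58 ± 0.95 (SE) for Hist2h2ac and 0.02 ± 0.38 (SE) for Hist2h2be, with edgeR adjusted p-values of 0.579 and 0.993, and the difference between them was not tested. None of the 50-base stretches of Hist2h2be was shared with another gene, against 55.0% in Hist2h2ac. The KO-over-HET estimate of Hist2h2be lay near 0 and took a negative sign without KO replicate 2 or without HET replicate 3.

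**Figure D4:**
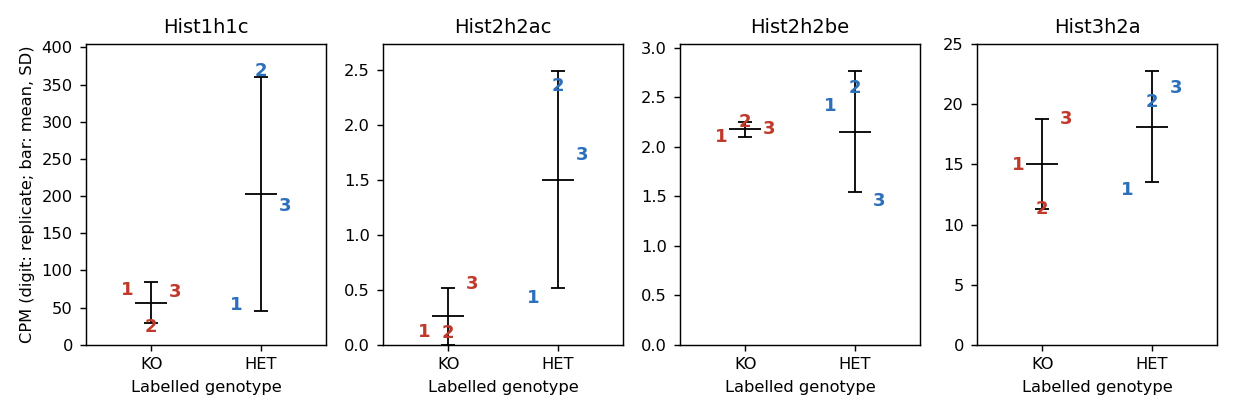
CPM of 4 members in each library (digits give the replicate number, red for KO and blue for HET), with the mean (long dash) and SD (bars) of each label. Hist1h1c and Hist2h2ac reach their highest values in HET replicates 2 and 3, while Hist2h2be and Hist3h2a stay within a narrow range in both labels.

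In the other head-to-head pairs the H2B gene was usually the higher per length. Of 13 pairs, 9 had a single exon in both genes, so their RPKM values can be compared. The H2B gene was higher in mean RPKM in 8 of these 9 and in all 6 libraries in 7. Among the H2A genes of these pairs, Hist1h2aa (0.018 RPKM) and Hist1h2ak (0.121 RPKM) rested on few counts, and Hist1h2aj is annotated as a pseudogene. Hist1h2bl, for example, averaged 16.8 RPKM over the 6 libraries and its H2A neighbour Hist1h2ai 1.04 RPKM. The exception was again Hist2h2ac, at 1.34 RPKM, with Hist2h2be at 0.671 RPKM. How reads shared among H2A genes were divided bears on these ratios.

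Promoter sequence was looked at because HET replicates 2 and 3 were the 2 highest libraries for 41 of the 44 tested members. RefSeq promoter windows (GRCm38.p6, 250 bases before to 50 after the start) matched 60 of the 69 members. CCAAT, the motif read by the factor NF-Y, searched on both strands, was in 51 of the 60 (85%) and in 37.4% of 32851 promoter windows of all genes. It was in all 48 H1, H2A, H2B and H3 windows and in 3 of 12 H4 windows. TATAAA was in 35 windows (58.3%), against 13.6% of all promoters. ATTTGCAT, the octamer motif read by POU factors, was in 13 windows (21.7%), against 1.74% of all promoters, and those 13 were 7 of 17 H2A and 6 of 15 H2B windows. No motif holds another, and a match is a description of the sequence and not a bound site. The 250 bases upstream of the start are shown for a typical H2B gene, for the highest H4 gene and for Hist2h2ac and Hist3h2a, all 5′ to 3′ on the gene's strand, with these 3 motifs on either strand in capitals.
Hist1h2bj (chr13:22042948-22043197, plus strand): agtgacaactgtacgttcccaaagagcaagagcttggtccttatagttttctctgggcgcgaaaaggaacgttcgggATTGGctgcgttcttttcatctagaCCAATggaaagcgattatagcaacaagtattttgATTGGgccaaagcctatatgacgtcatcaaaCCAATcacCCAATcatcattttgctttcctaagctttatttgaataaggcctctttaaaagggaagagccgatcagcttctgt
Hist1h4i (chr13:22041363-22041612, minus strand): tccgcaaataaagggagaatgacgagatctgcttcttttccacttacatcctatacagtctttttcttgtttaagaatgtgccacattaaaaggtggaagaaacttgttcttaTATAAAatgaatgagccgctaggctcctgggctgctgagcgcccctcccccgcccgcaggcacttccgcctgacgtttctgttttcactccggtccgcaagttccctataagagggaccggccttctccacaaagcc
Hist2h2ac (chr3:96220881-96221130, minus strand): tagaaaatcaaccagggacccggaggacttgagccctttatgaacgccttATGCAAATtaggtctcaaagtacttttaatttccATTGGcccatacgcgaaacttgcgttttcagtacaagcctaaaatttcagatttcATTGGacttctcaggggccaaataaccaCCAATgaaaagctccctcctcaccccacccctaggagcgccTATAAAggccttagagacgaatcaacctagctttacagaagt
Hist3h2a (chr11:58954435-58954684, plus strand): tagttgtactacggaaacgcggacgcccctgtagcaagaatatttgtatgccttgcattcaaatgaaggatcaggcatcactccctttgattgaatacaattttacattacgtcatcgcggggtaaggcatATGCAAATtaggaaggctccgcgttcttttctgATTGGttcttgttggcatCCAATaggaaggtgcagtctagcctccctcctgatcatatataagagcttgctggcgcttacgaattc
The Hist2h2ac window covers all 238 bases between its start and that of Hist2h2be, so the letters in capitals lie upstream of both genes of that pair. Hist1h4i held no CCAAT in its window, and Hist1h2bj held 5 copies counting both strands.

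Genes of DNA replication, whose mRNAs also peak around S phase in most cell types, ran in the opposite order to the histone genes. The summed level of 40 such genes was 1783, 4778 and 1492 CPM in KO replicates 1 to 3, against 1979, 713 and 1064 CPM in HET replicates 1 to 3. The sum of 20 mitosis genes was 1137, 2398 and 779 CPM in KO libraries, against 1301, 163 and 581 CPM in HET libraries. From the lowest to the highest histone sum, the libraries ran KO replicate 2, HET replicate 1, KO replicate 1, KO replicate 3, HET replicate 3 and HET replicate 2, and both other sums ran down in exactly this order. The ratio of summed histone CPM to summed replication CPM was 0.0834, 0.0165 and 0.156 in KO libraries, against 0.0721, 1.18 and 0.463 in HET libraries. HET replicate 1 lay between KO replicates here as well, so the order crosses the labels. It was seen in these 6 libraries after their values were known and has no p. Because CPM values share a total, and the libraries also differed in epithelial, leukocyte and fibroblast markers, what part those differences have in the order was not tested.

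**Figure D5:**
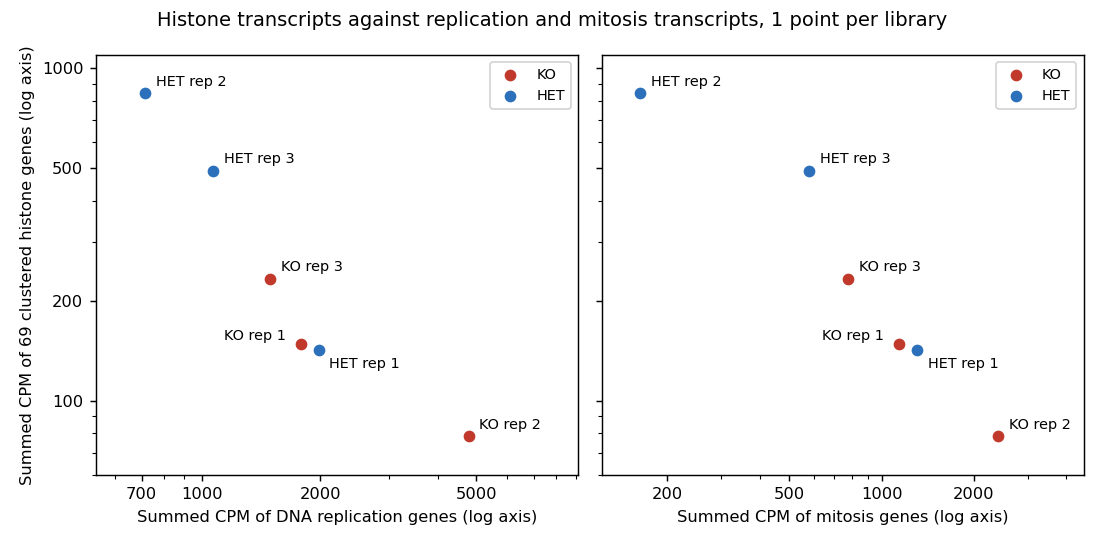
Summed CPM of the 69 clustered histone genes (vertical, log axis) against summed CPM of 40 DNA replication genes (left panel) and 20 mitosis genes (right panel, both log axes), with 1 point per library, red for KO and blue for HET. The points descend in both panels, with HET replicate 2 at the top left and KO replicate 2 at the bottom right.

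In the test of KO against HET, 39 of the 40 replication genes had a higher fitted level in KO and 1 a lower one, with a median log2 fold change of 1.30. None passed the adjusted threshold in edgeR, and 6 were higher at an unadjusted p under 0.05, beside 4.30% of all tested genes. Mcm4, a subunit of the replicative helicase, stood at 77.6, 231 and 77.0 CPM in KO libraries, against 68.5, 20.2 and 40.6 CPM in HET libraries. Every KO library lay above every HET library, as in 5 of the 40 replication genes and 8.09% of all tested genes. The log2 fold change of Mcm4 was 1.58 ± 0.62 (SE; edgeR adjusted p = 0.579). All 20 mitosis genes had a higher fitted level in KO, with a median log2 fold change of 0.92, and none had an unadjusted p under 0.05. Ccnb1, the mitotic cyclin, stood at 38.6, 53.9 and 28.3 CPM in KO libraries, against 34.7, 4.89 and 18.5 CPM in HET libraries. HET replicate 2 was the lowest library in both genes.

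Genes that act on the histone genes or their mRNAs mostly had a somewhat higher fitted level in KO, and none passed the adjusted threshold in edgeR. Of all 17584 tested genes, 8950 had a higher fitted level in KO. Of 31 listed genes of histone mRNA processing 29 were tested, 23 with a higher and 6 with a lower fitted level in KO. Their median log2 fold change was 0.41, and 1 was higher at an unadjusted p under 0.05, beside 4.30% of all tested genes. Slbp, which binds the stem-loop, stood at 41.8, 76.8 and 33.7 CPM in KO replicates 1 to 3, against 37.3, 17.6 and 29.6 CPM in HET replicates 1 to 3. KO replicate 2, with the lowest histone sum, had the most Slbp, and HET replicate 2, with the highest, had the least. Eri1, a nuclease that trims the stem-loop end and takes part in histone mRNA decay, stood at 61.0, 146 and 47.4 CPM in KO libraries, against 48.4, 32.5 and 41.9 CPM in HET libraries. Casp8ap2, a component of the histone locus body, stood at 15.8, 59.0 and 32.7 CPM in KO libraries, against 26.0, 25.3 and 26.5 CPM in HET libraries.

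Of 16 genes of histone gene transcription, 14 had a higher and 2 a lower fitted level in KO, with a median log2 fold change of 0.62. At an unadjusted p under 0.05, 2 were higher, beside 4.30% of all tested genes. Npat, the coactivator of histone genes that cyclin E and CDK2 phosphorylate, stood at 32.8, 61.2 and 35.5 CPM in KO libraries, against 29.7, 24.8 and 32.0 CPM in HET libraries. Nfya, a subunit of the CCAAT-binding factor NF-Y, stood at 75.8, 80.1 and 56.2 CPM in KO libraries, against 44.2, 42.0 and 40.0 CPM in HET libraries. Every KO library was above every HET library in both genes, with log2 fold changes of 0.58 ± 0.30 for Npat and 0.75 ± 0.20 for Nfya (SE; edgeR adjusted p of 0.594 and 0.579), a pattern that 8.09% of all tested genes had. Of 27 histone chaperone genes, 23 had a higher and 4 a lower fitted level in KO, with a median log2 fold change of 0.44. None had an unadjusted p under 0.05, where 4.30% of all tested genes were higher. Nasp, a chaperone of H1 and of H3 with H4, stood at 23.2, 91.8 and 32.5 CPM in KO libraries, against 28.4, 9.36 and 17.7 CPM in HET libraries.

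Most histone variants encoded outside the clusters, whose mRNAs are mainly polyadenylated, had another library order, and HET replicates 2 and 3 were the 2 highest libraries for 1 of the 9 core variants, H2afj. H2afj stood at 54.7, 25.1 and 37.7 CPM in KO replicates 1 to 3, against 24.7, 54.9 and 113 CPM in HET replicates 1 to 3. Of 9 core histone variant genes, 7 had a higher and 2 a lower fitted level in KO, with a median log2 fold change of 0.47. Their summed level was 822, 986 and 476 CPM in KO replicates 1 to 3, against 708, 488 and 638 CPM in HET replicates 1 to 3. H3f3b, which encodes the replacement histone H3.3, stood at 357, 487 and 210 CPM in KO libraries, against 304, 215 and 244 CPM in HET libraries. H2afz, the gene of H2A.Z, stood at 79.9, 112 and 40.2 CPM in KO libraries, against 84.3, 33.5 and 41.9 CPM in HET libraries. Neither gene had HET replicates 2 and 3 at its top, and the groups overlapped in both. H1f0, the linker histone of resting and differentiated cells, stood at 188, 92.0 and 72.4 CPM in KO libraries, against 232, 135 and 128 CPM in HET libraries, with a log2 fold change of -0.49 ± 0.44 (SE; edgeR adjusted p = 0.726).

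The labels describe total RNA freed of ribosomal RNA, a preparation that keeps RNAs without a poly(A) tail. Of 18 listed RNAs of that kind 16 were in the tables and 4 passed the filter on low counts. Rn7sk, the RNA of the 7SK particle that restrains transcription elongation, stood at 1.00, 0.517 and 3.25 CPM in KO libraries, against 0.283, 0.995 and 0.314 CPM in HET libraries. Malat1, a long nuclear RNA whose end is protected by a triple helix, stood at 506, 430 and 632 CPM in KO libraries, against 343, 836 and 771 CPM in HET libraries. Its 4 highest libraries came in the order of the histone sums, HET replicate 2, HET replicate 3, KO replicate 3 and KO replicate 1, and the spread was far narrower. Rn7sk had another order, with KO replicate 3 highest. Rmrp and Rpph1, the RNAs of RNase MRP and RNase P, reached at most 0.436 and 0.978 CPM in KO libraries, against 0.191 and 0.319 CPM in HET libraries. The levels of Rn7sk, Rmrp and Rpph1 are low for such abundant RNAs in the labelled preparation, and the reason was not tested. How fully the histone values count mRNAs without a poly(A) tail is therefore not known. Whether the yield of RNAs without a poly(A) tail differed between the libraries was not tested.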

How the data were processed

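RNA was measured in 6 libraries, 3 labelled KO and 3 labelled HET. Estimated counts for every gene were deposited for each library, of which 70.1% of the values above 0 were whole (within 1e-06), together with RPKM values. Partek, Bowtie2 and cutadapt 1.2.1, and the builds mm10 and GRCm38, are listed in the submitters' processing notes. The counting of shared reads and the annotation were not stated in any source used here. The deposited RPKM values of genes with long introns were mostly divided by genomic span. After 1 common factor of 1.22, 9555 genes with a span over 2 times their exon length were compared. In 96.0% of them the implied length was within 10% of the span. Some single-exon members had an implied length below their GENCODE span. Of 48408 rows per file, 30 had a biotype in place of the gene and were left out, and 7 repeated symbols were summed.

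KO was set against HET on rounded counts in edgeR 4.0.16 (R 4.3.3), with filterByExpr, TMM factors and its two-sided quasi-likelihood test, and p-values were adjusted by Benjamini-Hochberg over all tested genes. CPM values are these counts relative to TMM-scaled totals. SE is the absolute log2 fold change over the square root of F. The alternatives were other scalings and filters, DESeq2 1.42.0, voom and log2(RPKM + pseudocount) fits with limma 3.58.1, and leaving out libraries. The series speaks of technical triplicates and the titles carry different numbers, apart from 1 number on both a KO and a HET title. Libraries of a label differed beyond sampling noise (155.5 to 338.6 units of chi-square for each degree of freedom), and the p-values speak only of the spread seen among these 6 libraries, which may be technical. Stem-loops and shared 50-base stretches came from GENCODE M21 transcripts and promoters from RefSeq. Named genes were, per type, the 3 highest by mean RPKM and the 2 of smallest p in each direction, with the members of clusters 3 and 4, those known from testis or as polyadenylated, and up to 4 genes per other list. The members, lists and rule were chosen with earlier results of these data known. Genes named outside the rule, Hist1h2ag and single markers among them, were chosen after their values were seen.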

Additional observations from a re-analysis of the deposited data

How the results depend on the processing

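No member passed the adjusted threshold under any setting run, with a smallest adjusted p of 0.145 (DESeq2). The count of members at an unadjusted p under 0.05 was 8 in the main test, where 8.59% of all tested genes passed in either direction. It was 5 with library size alone as scaling (9.85% of all genes), 15 without a filter (6.55%) and 20 with DESeq2 (11.1%). It was 3 with limma-voom (5.07% of all genes lower in KO). Fits on log2(RPKM + 1) gave 3 and on log2(RPKM + 0.1) 4, and leaving out 1 library at a time gave 0 to 44. For these last fits the shares of all genes are not given here. The cause of the differences was not tested. The median log2 fold change of tested members was -1.62, against -0.71 on log2(RPKM + 1), a scale that understates changes of low genes, and -2.25 to -1.08 when leaving out 1 library. The log2 ratio of the summed CPM ran from -2.12 to -1.05 over the same settings. Settings added after seeing the data gave -1.80 for members with under 10% of shared stretches and -1.77 for those with at least 50%. Hist1h1c made up most of the sum of members with under 10%, at 73.7 of 77.0 CPM in KO replicate 1 and 368 of 379 CPM in HET replicate 2. The -1.80 therefore says little of the other members in that set. Library size alone moved the median of all genes to 0.15. Of 323 recomputed fold changes of 22 named members, 319 kept their direction. These refits rest on the same 6 libraries and are not independent of each other. The 4 that turned were Hist2h2be, at -0.02 without KO replicate 2, -0.20 without HET replicate 3 and -0.23 without the 2 libraries that share a title number, and Hist1h3b, at 0.28 without HET replicate 2. Leaving out 1 library gave -0.20 to 0.17 for Hist2h2be and -2.49 to 0.28 for Hist1h3b. No paired analysis was possible because the titles of KO and HET libraries share only 1 number. Depth limits the low members, and 20 of 69 had at least 10 counts in every library. The spread between libraries limits the high ones too: the SE of Hist1h1c was 0.75, beside a median SE of 0.82 over the tested members.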
